A study of Homo sapiens with 4 samples.

Results

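The genes described here encode the machinery that presents peptides on major histocompatibility complex (MHC) class I molecules. They are HLA-B, HLA-C, HLA-E, HLA-F, B2M, TAP1, TAP2, TAPBP and NLRC5, listed by name with no threshold on their values, and with earlier results of these data known. All 9 had a row among the 20263 genes of the count table, and all 9 were among the 13879 genes that passed the filter on low counts. The samples were 2 libraries of MDA-MB-231, a human cell line derived from triple-negative breast cancer, left for 24 h with Neoribocic, and 2 libraries of the same line with DMSO, the solvent control. Culture was in medium with 10% fetal bovine serum in both groups. The treatment protocol writes the compound as Rib_CA, which was read as the same treatment. The sources used here do not give its dose. Whether replicate libraries were grown as separate cultures is not labelled, so p-values cover the spread among the 4 libraries, and that spread may be technical.

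A class I molecule is a heavy chain, encoded by an HLA gene, held together by the light chain beta-2 microglobulin (B2M) and a peptide. The proteasome makes the peptides, the TAP1 and TAP2 transporter carries them into the endoplasmic reticulum, and tapasin (TAPBP) joins the transporter to empty class I molecules for loading. NLRC5 is a transactivator that acts at the promoters of these genes, which interferon also induces. Inhibitors of the kinases CDK4 and CDK6 are known to raise antigen presentation in tumour cells, which gives the comparison its question. The series title connects Neoribocic to a block of the cell cycle, and its target is not stated there.

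The libraries held 41572094 and 43014212 counts for Neoribocic, against 34774542 and 37754168 for DMSO. Mitochondrially encoded genes took 5.76% and 7.24% of the Neoribocic counts, against 8.68% and 21.7% of the DMSO counts. Across genes, the log2 fold change was related to the length and GC content of transcripts (Spearman -0.40 and 0.45 over 13862 genes, which are not independent replicates). So was the log2 difference between Neoribocic replicates 2 and 1 (Spearman 0.42 with length and -0.51 with GC content). A value corrected for both is therefore given beside the members. Among markers of the line, VIM stood at 2804 to 4238 CPM (counts over the library total scaled by its TMM factor), and the 12 markers summed to 9550.2 to 9651 CPM with Neoribocic and 11279.5 to 13816 CPM with DMSO. Levels differed among these 12, with S100A4 at 5.58 and 5.76 CPM and ZEB1 at 61.6 and 64.0 CPM in the DMSO libraries. With Neoribocic 6 of the 12 were called lower and 2 higher, beside 21.3% lower and 19.1% higher among all genes tested. The 11 markers of luminal and other breast lines summed to 903 to 1195 CPM with Neoribocic and 809 to 994 CPM with DMSO. Of these, the keratin genes KRT8, KRT18 and KRT19 and the receptor gene ERBB2 lay between 65.6 and 498 CPM, and 3 were below 1 CPM in every library, CDH1, ESR1 and TFF1. Of 12 immune cell markers, 10 were below 1 CPM in every library, with CD3E, CD2, MS4A1 and TYROBP at 0 counts and PTPRC at no more than 0.620 CPM. The other two, CD68 and LAPTM5, ranged from 157 to 340 and from 70.0 to 118 CPM. The summed level of the immune markers was 340 to 385 CPM with Neoribocic and 228 to 459 CPM with DMSO. The part of these marker levels in the results was not tested. With the mitochondrially encoded genes left out, the log2 fold changes of HLA-B, HLA-E and TAP1 were 1.53, 1.39 and 0.89, and the same count of 3 members was called higher and 0 lower.

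With Neoribocic, 3 of the 9 genes rose and 0 fell. HLA-B rose 2.88-fold, HLA-E 2.61-fold and TAP1 1.85-fold. HLA-C and HLA-F were higher in both Neoribocic libraries than in both DMSO libraries but did not pass the test, and B2M, TAP2, TAPBP and NLRC5 had groups that overlapped. Of all genes tested, 40.4% were called, 19.1% higher and 21.3% lower, by edgeR's quasi-likelihood test at a Benjamini-Hochberg adjusted p below 0.05, so that 47.2% of the calls were higher, or 59.6% when libraries were scaled by their totals. The libraries did not overlap, with Neoribocic above, in 5 of the 9 genes and in 37.8% of all genes, and with Neoribocic below in 0 of the 9 and in 37.3% of all genes. The median log2 fold change (Neoribocic minus DMSO) was 0.89 for the 9 genes and 0.01 for all genes, and after the correction 0.28 and -0.01. In bulk RNA, a change in the number of cells of one kind and a change in RNA per cell cannot be told apart.

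**Figure D1:**
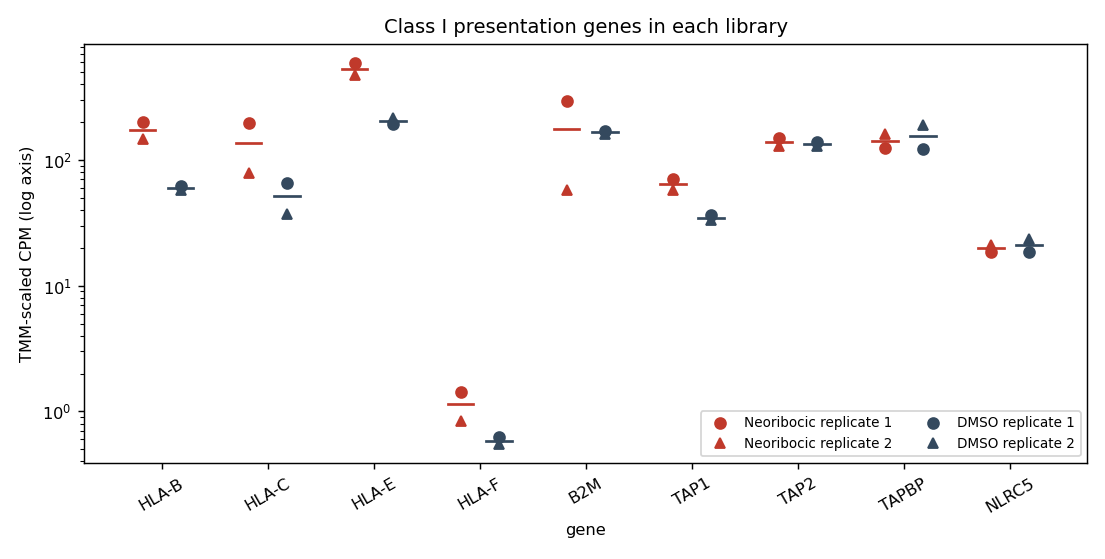
TMM-scaled CPM of the 9 genes in each library, on a log axis, with replicate 1 as circles, replicate 2 as triangles and the group mean as a bar; Neoribocic is left of DMSO for each gene. HLA-B, HLA-C, HLA-E, HLA-F and TAP1 have both Neoribocic libraries above both DMSO libraries, and B2M has 1 Neoribocic library above and 1 below.

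The heavy chain genes were taken first. HLA-B (ENSG00000234745), a classical heavy chain that shows peptides to cytotoxic T cells, was at 199 and 147 CPM in Neoribocic replicates 1 and 2, against 61.9 and 58.2 CPM in DMSO replicates 1 and 2. Both treated libraries were more than 2-fold above either control. The means were 173 ± 36.8 and 60.04 ± 2.59 CPM (SD, n = 2 each), and the log2 fold change was 1.53 ± 0.22 (SE; edgeR adjusted p = 0.00161). After the correction it was 0.80 ± 0.14 (edgeR adjusted p = 0.0104).

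HLA-E (ENSG00000204592) is a less variable heavy chain that presents leader peptides of other class I proteins and is read by the NKG2A receptor of natural killer cells. It was at 591 and 476 CPM in the Neoribocic libraries, against 194 and 214 CPM in the DMSO libraries. The groups were well apart, and both replicate pairs were close. The log2 fold change was 1.39 ± 0.20 (edgeR adjusted p = 0.00178), or 1.05 ± 0.14 after the correction (edgeR adjusted p = 0.00534).

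HLA-C (ENSG00000204525), the classical heavy chain that is also the main ligand of the killer cell immunoglobulin-like receptors, was at 196 and 78.9 CPM with Neoribocic, against 65.9 and 37.2 CPM with DMSO. In each group replicate 1 was the higher library, by 2.48 times with Neoribocic and 1.77 times with DMSO, and the lower treated library was only a little above the higher control. Its log2 fold change of 1.41 ± 0.53 was close in size to that of HLA-B but missed the threshold (edgeR adjusted p = 0.0934), with a 95% interval of 0.032 to 2.79. Without Neoribocic replicate 2 it was 1.93 and passed (edgeR adjusted p = 0.0102), and DESeq2, with an adjusted p of 0.00412, and edgeR without the robust option, at 0.0411, also called it. Without Neoribocic replicate 1 it was 0.62, and after the correction 0.60 (edgeR adjusted p = 0.346).

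HLA-F (ENSG00000204642), a heavy chain with restricted expression that also binds natural killer receptors, had few counts. It had 61 and 40 counts with Neoribocic, against 22 and 18 with DMSO, which is 1.44 and 0.842 CPM against 0.620 and 0.549 CPM. The log2 fold change of 0.95 ± 0.48 did not pass (edgeR adjusted p = 0.142; 95% interval -0.15 to 2.06). After the correction it was 0.28 (edgeR adjusted p = 0.623), and without Neoribocic replicate 1 it was 0.53 (edgeR adjusted p = 0.624). Of its exon bases 28.5% overlap a gene on the opposite strand, as do 17.8% of those of HLA-B, and the sources used here do not say whether counting used strand.

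Reads of similar heavy chain genes can be divided among copies, and the alleles of the line can differ from the sequence used for mapping. In GENCODE transcripts, 2.54% of the 50-base stretches of HLA-B, 6.79% of HLA-C, 5.13% of HLA-E and 1.70% of HLA-F also occur in another gene. A sum does not depend on how reads are divided among these genes. Summed over HLA-B, HLA-C, HLA-E and HLA-F, the level was 987 and 702 CPM with Neoribocic, against 322 and 310 CPM with DMSO, a ratio of means of 2.67. The sum covers only these genes, and other class I genes were not analysed here.

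The promoters of HLA-B, HLA-C and HLA-F are shown because these genes lay on the same side of DMSO. Class I promoters are known for a regulatory module through which NLRC5 and its partners act. That module holds an X2 box, bound by CREB and ATF1, and a Y box, bound by NF-Y. Such promoters are also known for a kappa B element for NF-kB and an interferon-stimulated response element (ISRE) for IRF factors. The sequences are RefSeq windows on GRCh38.p14 from 250 bases before the annotated start to 50 from it, written 5′ to 3′ on the gene's strand. HLA-B is chr6:31357130-31357429 on the minus strand, HLA-C chr6:31272043-31272342 on the minus strand and HLA-F chr6:29723184-29723483 on the plus strand. Capitals mark matches, on either strand, to TGACG (X2 box core), CCAAT (Y box), TTCNNTTTC (ISRE core), GGGANTCCC (kappa B) and TTCNNNGAA (the interferon-gamma activated site, GAS). Only these exact letters were searched, so a window without a match can still hold a variant of the element.
HLA-B: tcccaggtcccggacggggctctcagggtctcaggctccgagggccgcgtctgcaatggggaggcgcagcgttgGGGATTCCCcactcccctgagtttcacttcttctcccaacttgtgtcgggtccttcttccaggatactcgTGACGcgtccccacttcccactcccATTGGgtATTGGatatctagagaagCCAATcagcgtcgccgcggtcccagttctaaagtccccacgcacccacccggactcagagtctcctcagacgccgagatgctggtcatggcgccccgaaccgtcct
HLA-C: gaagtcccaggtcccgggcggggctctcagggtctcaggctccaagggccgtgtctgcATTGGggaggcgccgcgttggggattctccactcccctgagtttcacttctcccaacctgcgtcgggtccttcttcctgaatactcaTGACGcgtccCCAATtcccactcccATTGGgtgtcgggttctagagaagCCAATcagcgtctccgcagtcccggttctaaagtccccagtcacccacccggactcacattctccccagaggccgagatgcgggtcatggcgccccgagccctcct
HLA-F: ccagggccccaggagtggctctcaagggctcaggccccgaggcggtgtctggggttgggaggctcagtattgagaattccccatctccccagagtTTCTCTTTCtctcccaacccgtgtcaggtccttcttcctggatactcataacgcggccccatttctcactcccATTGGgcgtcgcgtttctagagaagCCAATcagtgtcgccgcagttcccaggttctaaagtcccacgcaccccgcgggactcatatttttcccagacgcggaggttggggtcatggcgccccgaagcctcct

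The HLA-B and HLA-C windows were identical in 88.5% of aligned positions, and HLA-F in 79.2% and 78.5% with HLA-B and HLA-C. HLA-B held the X2 core 106 to 102 bases before the start and HLA-C at 105 to 101, and HLA-F held no match to it. Y box letters stood in HLA-B at 81 to 77, 74 to 70 and 56 to 52. In HLA-C they stood at 192 to 188, 95 to 91, 80 to 76 and 56 to 52, and in HLA-F at 82 to 78 and 57 to 53. The kappa B letters were matched in HLA-B at 176 to 168 and not in HLA-C. HLA-F held the ISRE core at 155 to 147. Of all 35116 RefSeq windows of this length, 24.6% held TGACG, 34.6% CCAAT, 8.11% the ISRE core, 0.877% the kappa B letters and 7.66% the GAS letters. A longer X2 core, TGACGTCA, was in 1.85% of all windows and in 0 of the 8 member windows.

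The light chain gene B2M (ENSG00000166710), whose protein every class I molecule needs to reach the surface, gave no shared direction in the treated libraries. It had 292 and 58.1 CPM in Neoribocic replicates 1 and 2, against 171 and 162 CPM in the DMSO libraries. The treated libraries were thus 5.03 times apart and lay on opposite sides of the controls, which differed by 1.06 times. Only 18 of 13879 genes had a lower log2 difference between Neoribocic replicates 2 and 1 than the -2.33 of B2M. After the correction the treated levels were 304 and 58.1 CPM, so the gap did not shrink with it, and the corrected log2 fold change was 0.15 (edgeR adjusted p = 0.897). The log2 fold change of 0.073 ± 0.86 had a 95% interval of -2.51 to 2.66 (edgeR adjusted p = 0.956). It was 0.81 without Neoribocic replicate 2 and -1.51 without replicate 1, each past the threshold (edgeR adjusted p = 0.0347 and 0.0141), so the direction rests on which library is used.

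The B2M promoter (chr15:44711267-44711566, plus strand, RefSeq on GRCh38.p14) is shown with the same capitals because it carries the X2, Y and ISRE letters together. TGACG lies 75 to 71 bases before the start and the Y box letters 49 to 45. There are 2 overlapping ISRE matches, at 144 to 136 and 138 to 130.
B2M: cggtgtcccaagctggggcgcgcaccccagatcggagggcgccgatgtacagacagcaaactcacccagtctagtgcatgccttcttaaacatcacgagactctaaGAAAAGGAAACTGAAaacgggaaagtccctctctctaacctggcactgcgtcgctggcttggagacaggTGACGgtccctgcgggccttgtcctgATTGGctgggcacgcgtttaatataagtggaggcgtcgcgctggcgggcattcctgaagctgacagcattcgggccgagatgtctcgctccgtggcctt

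**Figure D2:**
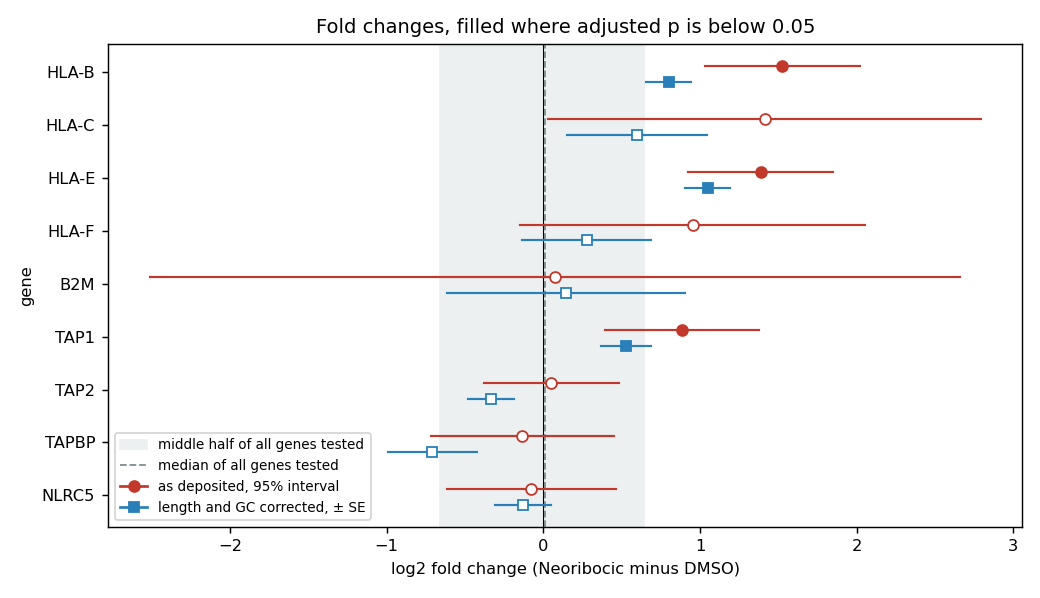
Log2 fold change (Neoribocic minus DMSO) of each gene, as deposited with its 95% interval (circles) and corrected for transcript length and GC content with its SE (squares), filled where the adjusted p is below 0.05; the shaded band is the range between the quartiles of all genes tested. HLA-B, HLA-E and TAP1 are filled in both, and the B2M interval runs from -2.51 to 2.66.

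Of the transporter genes, TAP1 rose and TAP2 did not pass the test. TAP1 (ENSG00000168394) was at 71.1 and 57.8 CPM with Neoribocic, against 36.4 and 33.3 CPM with DMSO. Every treated library was above every control. Its log2 fold change was 0.89 ± 0.21 (edgeR adjusted p = 0.0128), or 0.53 ± 0.16 after the correction (edgeR adjusted p = 0.0472). The call was lost without DMSO replicate 2 (0.84, edgeR adjusted p = 0.0618) and without Neoribocic replicate 1 (0.74, edgeR adjusted p = 0.0881). Of its exon bases 9.49% overlap a gene on the opposite strand.

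TAP2 (ENSG00000204267), the other subunit, was at 149 and 130 CPM with Neoribocic, against 139 and 130 CPM with DMSO. All 4 libraries lay within a narrow range. The log2 fold change of 0.051 ± 0.19 had a 95% interval of -0.38 to 0.48 (edgeR adjusted p = 0.846), and it was -0.33 after the correction. In GENCODE, 80.2% of the 50-base stretches of its transcript also occur in another gene. Of its exon bases 32.3% overlap a gene on the same strand. Whether TAP1 and TAP2 differ in their response was not tested.

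Tapasin and the transactivator did not pass either. TAPBP (ENSG00000231925) was at 124 and 161 CPM with Neoribocic, against 123 and 191 CPM with DMSO, and replicate 2 was the higher library in both groups. Its log2 fold change was -0.13 ± 0.25 (edgeR adjusted p = 0.698; 95% interval -0.72 to 0.45), and -0.71 after the correction (edgeR adjusted p = 0.106). NLRC5 (ENSG00000140853) was at 18.6 and 21.1 CPM with Neoribocic, against 18.6 and 23.3 CPM with DMSO. Its libraries overlapped almost fully. The log2 fold change of -0.076 ± 0.23 (edgeR adjusted p = 0.817) had a 95% interval of -0.61 to 0.46, so a fold above 1.38 or below 0.654 lies outside it. After the correction it was -0.13 (edgeR adjusted p = 0.597).

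The TAP1 promoter is shown as the member outside the heavy chains that rose (outer annotated start, chr6:32853655-32853954, minus strand, RefSeq on GRCh38.p14). It held 2 overlapping ISRE matches at 133 to 125 and 127 to 119 bases before the start and a Y box match at 249 to 245. ISRE matches also stood in the windows of genes that did not pass the test, in TAP2 at 58 to 50 and in TAPBP at 20 to 12 and 14 to 6. TAP2 also held the X2 core, at 35 to 31, and the inner TAP1 start held the GAS letters at 189 to 181. HLA-E and NLRC5 had no window in the table used.
TAP1: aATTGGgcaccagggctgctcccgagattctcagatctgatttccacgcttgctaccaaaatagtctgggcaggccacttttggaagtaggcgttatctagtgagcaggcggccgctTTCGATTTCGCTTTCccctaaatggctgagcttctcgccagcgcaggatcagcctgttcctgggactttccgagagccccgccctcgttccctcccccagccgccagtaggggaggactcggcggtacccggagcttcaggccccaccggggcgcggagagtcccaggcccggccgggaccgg

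**Figure D3:**
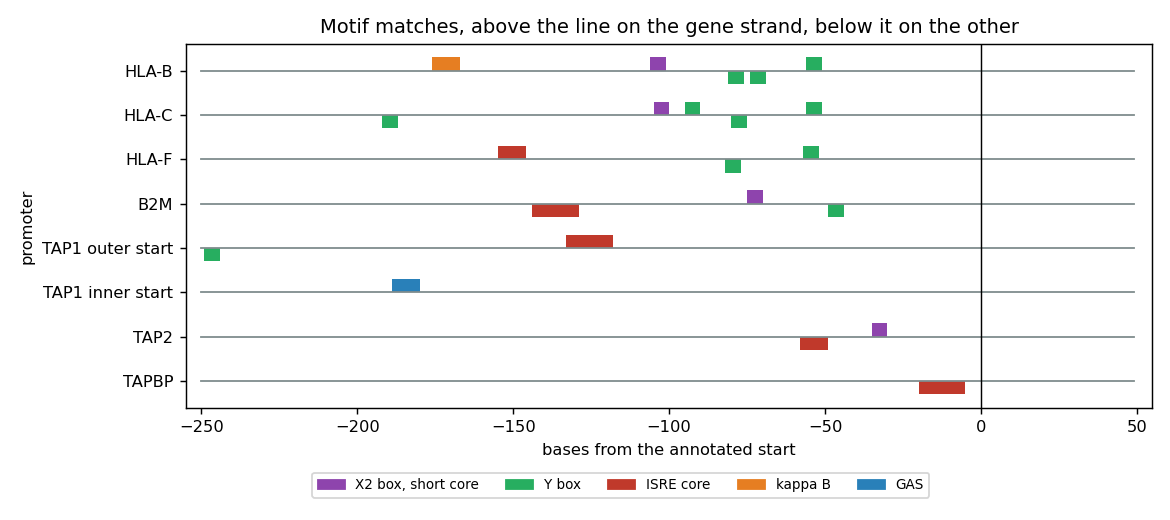
Motif matches in the 8 RefSeq promoter windows of 7 members, by distance in bases from the annotated start; boxes above a line are on the gene's strand and those below it on the other strand, coloured by motif. X2 core matches stand within 106 bases of the start in HLA-B, HLA-C, B2M and TAP2. Y box matches stand in HLA-B, HLA-C, HLA-F, B2M and TAP1, and ISRE core matches in HLA-F, B2M, TAP1, TAP2 and TAPBP. Only exact letters were searched, so a window without a match can still hold a variant.

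Levels of different genes were compared per kilobase of the same transcript used for the correction, and they depend on which transcript is chosen. With DMSO the order by mean was B2M at 97.7 ± 3.79 CPM per kb, TAPBP at 82.9 ± 25.5, HLA-E at 78.4 ± 5.53, TAP2 at 53.8 ± 2.57, HLA-B at 38.8 ± 1.67, HLA-C at 33.6 ± 13.2, TAP1 at 11.8 ± 0.729, NLRC5 at 3.07 ± 0.492 and HLA-F at 0.358 ± 0.0309 (SD, n = 2 each). Within it B2M, TAPBP and HLA-E, and likewise HLA-B and HLA-C, were not apart by more than the larger SD of each neighbouring pair. With Neoribocic HLA-E came first at 205 ± 31.4 CPM per kb, ahead of HLA-B at 112 ± 23.8, B2M at 103 ± 97.2, HLA-C at 89.4 ± 53.8, TAPBP at 75.6 ± 13.7 and TAP2 at 55.7 ± 5.40. The neighbours from HLA-B to TAPBP in this order differed by less than their SD. TAP1 was at 21.8 ± 3.19, NLRC5 at 2.91 ± 0.264 and HLA-F at 0.697 ± 0.257 CPM per kb.

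**Figure D4:**
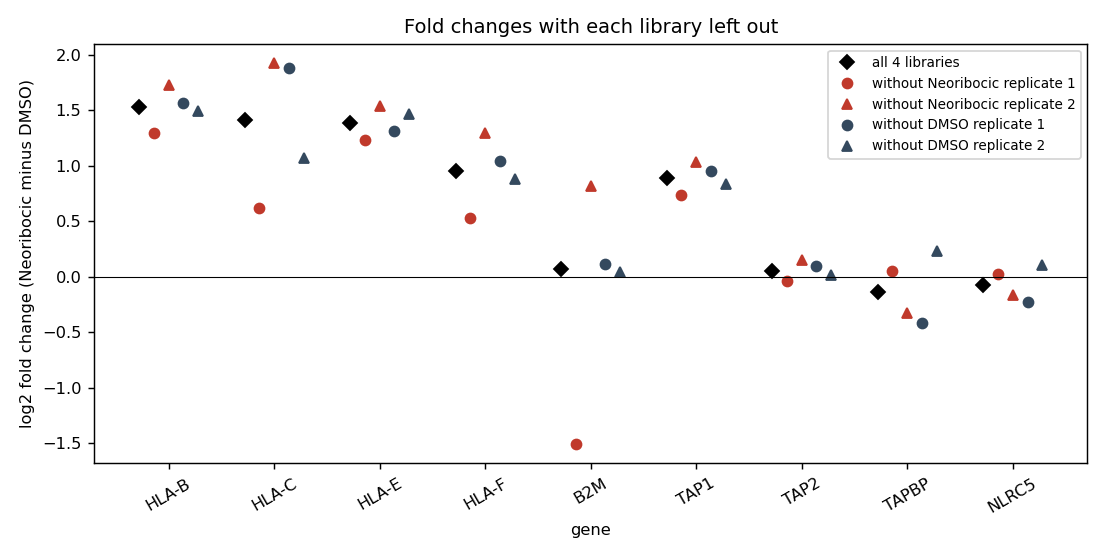
Log2 fold change (Neoribocic minus DMSO) of each gene with all 4 libraries (diamonds) and with each library left out in turn. HLA-B, HLA-C, HLA-E, HLA-F and TAP1 stay above 0 in all 5 fits, and B2M runs from -1.51 to 0.81.

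The rest of the pathway was described with 10 lists of 120 genes. Of the 110 that passed the filter, 14 were called higher (12.7%) and 32 lower (29.1%). Over all 13879 genes tested, 19.1% were called higher and 21.3% lower, or 2293 and 2683 genes after the correction. The list counts below stand beside these shares, and no list was tested as a set. Of the 5 genes for subunits and the activator of the immunoproteasome, the interferon-inducible form that makes many class I peptides, 3 rose and 0 fell, with a list median log2 fold change of 0.92, or 0.20 after the correction. PSMB9, an immunoproteasome catalytic subunit whose gene adjoins TAP1, was at 19.4 and 10.5 CPM with Neoribocic and 5.05 and 6.16 CPM with DMSO (1.41, edgeR adjusted p = 0.0121). The subunit gene PSMB8 rose by 0.92 and the activator gene PSME2 by 1.02 (edgeR adjusted p = 0.0164 and 0.0123). After the correction 0 of the 5 were called. PSMB8 and PSMB9 lost their calls without either DMSO library or Neoribocic replicate 1, and PSME2 without DMSO replicate 2 or Neoribocic replicate 1 (edgeR adjusted p between 0.0503 and 0.117). Of the 3 constitutive counterparts PSMB5, PSMB6 and PSMB7, 0 passed, with a median of 0.52, or -0.0013 after the correction. PSMB6, at 1.02 like PSME2, narrowly missed the threshold (edgeR adjusted p = 0.0507), and PSMB5 and PSMB7 were at 0.52 and 0.22. Whether the immunoproteasome genes and these counterparts differ in their response was not tested.

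Of 14 genes that trim peptides or help to load them, 0 rose and 4 fell, with a median of -0.37 (corrected -0.091). TPP2, a cytosolic peptidase, was at 18.9 and 23.9 CPM with Neoribocic, against 85.5 and 61.4 CPM with DMSO (-1.78, edgeR adjusted p = 0.00163; corrected -1.25). UGGT1, the glycoprotein folding sensor of the endoplasmic reticulum, fell by 1.39 and ERAP1, the aminopeptidase that trims peptides there, by 1.05 (edgeR adjusted p = 0.00370 and 0.00567). Neither of these was called after the correction (-0.50 and -0.33), and ERAP1 also lost its call without Neoribocic replicate 1 (edgeR adjusted p = 0.0521). The chaperone genes of the loading complex, CALR, CANX and PDIA3, had log2 fold changes of 0.40, -0.37 and -0.059 and did not pass.

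Of 15 factors that act at class I promoters, 0 were called higher and 3 lower, with a median of -0.15. ATF1 and IRF2 fell by 0.72 and 0.71, and each call was lost whichever library was left out (edgeR adjusted p between 0.0614 and 0.167). IRF1, which binds the ISRE, was at 21.96 and 24.4 CPM with Neoribocic and 25.3 and 24.4 CPM with DMSO, and RFX5, a subunit of the factor that binds beside the X2 box, had a log2 fold change of -0.29. After the correction 2 of the 15 were called higher and 1 lower.

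Among 12 genes of interferon receptors and signalling 1 rose and 4 fell. STAT2, which transmits type I interferon signals, was at 78.7 and 77.3 CPM with Neoribocic, against 43.3 and 34.4 CPM with DMSO (1.01, edgeR adjusted p = 0.00742). SOCS3, a feedback inhibitor of JAK signalling, fell by 1.56, PTPN2, a phosphatase that acts on JAK and STAT proteins, by 1.25 and JAK1 by 0.73. JAK1 lost its call without either DMSO library or Neoribocic replicate 1 (edgeR adjusted p between 0.0574 and 0.129), and it and PTPN2 lost theirs after the correction.

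More interferon-stimulated genes fell than rose. Of 18 interferon-stimulated genes 2 rose and 10 fell, with a median of -1.19 (corrected -0.95). SAMD9, an antiviral gene, was at 5.13 and 5.18 CPM with Neoribocic, against 61.7 and 54.2 CPM with DMSO (-3.49, edgeR adjusted p = 0.000480). IFIT3, an antiviral effector, fell by 2.68, and OAS2, an enzyme that senses double-stranded RNA, fell by 1.81. Other genes of the list did not pass, among them MX1 at 0.048, OAS1 at -0.55 and OASL at -0.11. The genes called higher were ISG15, at 1.09 (corrected -0.050), and IFI27, at 1.92 from levels of 1.22 and 1.01 CPM with Neoribocic and 0.310 and 0.274 CPM with DMSO. After the correction IFI27 was at 0.93 (edgeR adjusted p = 0.147), and 0 of the 18 genes were called higher and 9 lower. ISG15 lost its call without either DMSO library or Neoribocic replicate 1, and IFI27 without either Neoribocic library or DMSO replicate 2 (edgeR adjusted p between 0.0531 and 0.142).

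Of 15 genes for double-stranded RNA sensing and interferons, 11 passed the filter, 2 rose and 7 fell. IRF7 was at 36.2 and 26.5 CPM with Neoribocic, against 6.77 and 9.09 CPM with DMSO (1.98, edgeR adjusted p = 0.00151), and DHX58, a helicase of the RIG-I family, rose by 1.55. Among sensors of double-stranded RNA, RIGI fell by 2.17 and TLR3 fell by 2.15, and UHRF1, which guides DNA methylation at replication, fell by 1.57. After the correction 2 genes of the list were called higher and 5 lower. IRF7, DHX58, RIGI, TLR3 and UHRF1 were among them, at 1.25, 1.12, -1.56, -1.40 and -1.92. Interferon genes IFNB1, IFNL2 and IFNL3 had 0 counts in every library, and IFNL1 reached 0.168 CPM in 1 Neoribocic library.

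A list of 11 genes, drawn up as negative regulators of surface class I although it also holds BCAP31, had 3 genes that rose and 1 that fell, with a median of 0.39. MARCHF4, a ubiquitin ligase of class I molecules, was at 13.7 and 14.4 CPM with Neoribocic, against 40.6 and 42.3 CPM with DMSO (-1.56, edgeR adjusted p = 0.00154). BCAP31, a protein of the endoplasmic reticulum that is known to aid class I export, rose by 1.14 (corrected 0.41, not called). IRGQ, an autophagy factor, rose by 0.73 (corrected 1.10, still called) and SPPL3, an intramembrane protease, by 0.60 (corrected 0.64, still called). Each of these rises lost its call in at least 2 of the 4 fits that left out a library (edgeR adjusted p between 0.0587 and 0.147): BCAP31 without DMSO replicate 2 or Neoribocic replicate 1, IRGQ without either DMSO library or Neoribocic replicate 2, and SPPL3 whichever library was left out.

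Of 13 class I-like and NKG2D ligand genes, 11 passed the filter, 3 rose and 2 fell. PROCR, the endothelial protein C receptor with a class I-like fold, was at 132 and 89.1 CPM with Neoribocic, against 39.2 and 36.8 CPM with DMSO (1.54, edgeR adjusted p = 0.00231). FCGRT, the neonatal Fc receptor that pairs with B2M, rose by 1.56 and MICA, a stress ligand of NKG2D, by 0.77. RAET1E and ULBP3, other ligands of NKG2D, fell by 0.97 and 0.92. FCGRT and MICA lost their calls without DMSO replicate 1 or Neoribocic replicate 1, and RAET1E and ULBP3 without either Neoribocic library or DMSO replicate 2 (edgeR adjusted p between 0.0559 and 0.163). MICA and FCGRT were also not called after the correction (0.19 and 0.89). PROCR, RAET1E and ULBP3 were still called after it, at 1.01, -1.42 and -1.66.

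Of 14 class II presentation genes, 10 passed the filter, 0 rose and 1 fell. HLA-DRA did not exceed 2.13 CPM in any library. The gene that fell was CIITA, the class II transactivator and a relative of NLRC5, at 2.42 and 1.37 CPM with Neoribocic and 6.32 and 5.91 CPM with DMSO (-1.69, edgeR adjusted p = 0.00677; corrected -0.95, not called).

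**Figure D5:**
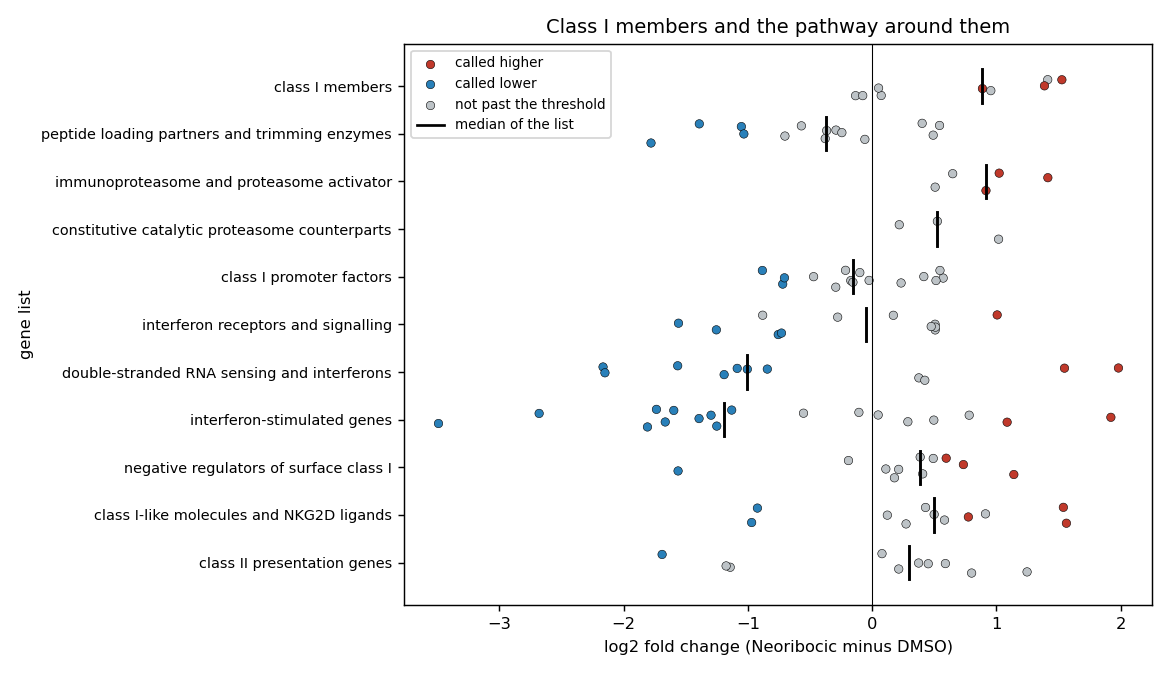
Log2 fold change (Neoribocic minus DMSO) of the 9 class I members and of each tested gene of 10 pathway lists, red where called higher, blue where called lower and grey otherwise, with the list median as a bar. The medians of the members and of the immunoproteasome list are 0.89 and 0.92, and that of the interferon-stimulated genes is -1.19.

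The mean profile of the 9 members over the 4 libraries was compared with that of 10757 other genes with a symbol and at least 5 CPM, by the Euclidean distance of centred log2 CPM. The nearest were FADD at a distance of 0.039, NMRAL1 at 0.054, NCAPH2 at 0.064, ATP5IF1 at 0.066 and NT5C3B at 0.069. FADD, the adaptor of death receptors, was at 100 and 70.3 CPM with Neoribocic and 54.8 and 54.2 CPM with DMSO. None of these 5 passed the threshold (edgeR adjusted p between 0.0523 and 0.0782). The distances of the members from their own mean ran from 0.27 for HLA-F to 1.58 for B2M. The 5 genes were picked as the smallest of 10757 distances, so theirs cannot be compared with those of the members.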

How the data were processed

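The authors deposited whole-number counts for each Ensembl gene, not normalized. Per the labels' protocols, each library was made from 1.4 µg of total RNA with an mRNA kit. Per the submitters' processing notes the builds are the mouse builds GRCm38 and mm10, but the gene IDs are human. The sources used here give no aligner, counter or strand setting, so gene coordinates are not given, and promoter windows are RefSeq's. Of 20263 IDs, 20148 matched a symbol.

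Genes were kept with filterByExpr, libraries scaled by TMM, and Neoribocic tested against DMSO with edgeR 4.0.16 (R 4.3.3), robust quasi-likelihood, with Benjamini-Hochberg adjustment over all genes and a threshold of 0.05. SEs are the log2 fold change divided by the square root of F. The correction took as an offset a surface fitted in each library (mgcv 1.9.3) to log2 CPM, with length and GC content of 1 GENCODE release 29 transcript per gene as its axes. Of counts below 20, 62.3% to 65.4% were even, against 50.3% to 51.3% of counts from 20 to 200. The cause was not tested, so the precision that the totals of 34774542 to 43014212 give is uncertain.

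Counts simulated for Neoribocic against DMSO (13716 genes fitted) gave calls for 0 of 67 genes with a 1.5-fold change, 15 of 67 with a 2-fold and 66 of 66 with a 4-fold change, and 1 of 82 calls was false. The simulation gave 82 calls in all, whereas 40.4% of the 13879 genes tested were called in the data. The adjustment was therefore stricter in the simulation, and its rates are not those of this comparison. With groups of 2 an exact permutation test cannot go below p = 0.333, so none is given. The 9 members, the lists and the tests were chosen with earlier results of these data known. Genes named from a list are up to 3 per direction with the smallest p among those called, and members of a list named beyond these were chosen after their values were seen. Some genes of the lists are not reported here. The 18 alternatives included other scalings, filters and thresholds, DESeq2 1.42.0, limma-voom 3.58.1, a replicate block, each library left out, halved counts, thinned counts and leaving out mitochondrial genes.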

Additional observations from a re-analysis of the deposited data

How the results depend on the processing

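HLA-B and HLA-E kept their calls in all 18 alternatives, at log2 fold changes of 0.80 to 1.73 and 1.05 to 1.56, and HLA-F was called in 0 of 17. TAP1 lost its call without DMSO replicate 2, without Neoribocic replicate 1 and at a threshold of 0.01. Leaving out 1 library gave 2 to 5 members called higher and 0 to 1 called lower (5 without Neoribocic replicate 2, and B2M as the 1 lower without Neoribocic replicate 1), 1001 to 2215 of all genes higher and 1467 to 2382 lower, and 6 to 13 pathway genes higher and 18 to 27 lower. At a threshold of 0.01, 1138 of all genes were higher and 1745 lower, and 4 pathway genes were higher and 21 lower. Upper-quartile factors gave 23 higher pathway genes. They moved the median log2 fold change of all genes to 0.13, and library totals moved it to 0.18. Signs turned for B2M with limma-voom (-0.36), with the replicate block (-0.35) and without Neoribocic replicate 1 (-1.51). TAP2 turned without Neoribocic replicate 1 (-0.042) and with the correction (-0.33). TAPBP turned with library totals (0.069), without DMSO replicate 2 (0.23) and without Neoribocic replicate 1 (0.048). NLRC5 turned with upper-quartile factors (0.046), library totals (0.11), without DMSO replicate 2 (0.11) and without Neoribocic replicate 1 (0.02). With the correction ISG15 (-0.050), NMRAL1 (-0.091), ATP5IF1 (-0.16) and NT5C3B (-0.052) turned. Over the fits that left out 1 library, B2M ranged from -1.51 to 0.81, TAP2 from -0.042 to 0.15, TAPBP from -0.42 to 0.23 and NLRC5 from -0.23 to 0.11. Apart from removed samples, the cause was not tested.

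Across all genes, samples with the same replicate number did not deviate together (correlation -0.055), and no label gives a shared batch. The numbers were therefore not taken as pairs. This correlation cannot exclude a pairing, because the difference between Neoribocic replicates was related to length and GC content. HLA-C was higher in replicate 1 of both groups and TAPBP in replicate 2 of both, while HLA-E was not higher in the same replicate. With the replicate block 2677 genes were higher and 2917 lower, HLA-C passed (edgeR adjusted p = 7.70e-05), and the calls of IRF2 and SPPL3 were lost (edgeR adjusted p = 0.0501 and 0.0590). With 2 libraries per group, a fit that leaves out a library assumes that the lone sample varies like the other group. HLA-F rests on 18 to 61 counts per library, and the filter of at least 1 CPM in at least 2 libraries removed it, so that alternative has no value.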

Other observations

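Within each library, HLA-C held 19.8% and 11.2% of the summed HLA-B, HLA-C, HLA-E and HLA-F counts in Neoribocic replicates 1 and 2, and 20.5% and 12.004% in DMSO replicates 1 and 2. The share thus lay close in libraries of the same replicate number and apart within each group. HLA-B held 20.2% and 20.9% with Neoribocic and 19.2% and 18.8% with DMSO, and HLA-E held 59.9% and 67.7% with Neoribocic and 60.1% and 69.1% with DMSO. These shares do not depend on how libraries are scaled, and no label explains the numbers.

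The heavy chain sum divided by B2M, both per kilobase, was 2.82 and 9.67 in the Neoribocic libraries, against 1.57 and 1.52 in the DMSO libraries. Both treated libraries were above both controls, although B2M itself was above the controls in replicate 1 and below them in replicate 2. This ratio was formed after the values were seen and was not tested.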
